A study of Mus musculus with 8 samples.

Results

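Integrins are cell surface receptors built from 1 alpha and 1 beta chain, which hold cells to the extracellular matrix or to other cells. The genes described here are 9 integrin chains outside the beta-2 family of leukocytes, with Vcam1, a ligand of integrins on the surface of other cells. The members were chosen by symbol: Itga1, Itga4, Itga5, Itga6, Itgav, Itgb1, Itgb3, Itgb5, Itgb7 and Vcam1. Each symbol matched 1 row, so that they are 10 of 25572 genes in the table. All 10 passed the filter on low counts, which left 13575 genes tested.

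RNA was sequenced from neutrophils that had been sorted out of PyMT-N tumours grown in C57/B6 mice. One fraction had high and the other low surface ICAM1, which the titles call cd54+ and cd54-. ICAM1 (CD54) is an adhesion molecule of the immunoglobulin superfamily. Each group had 4 libraries, with the replicate numbers 1, 2, 3 and 5, and each library was made from 150 pg of total RNA. Values listed for a group follow this order of replicates, and each mean, SD and SE below is over 4 libraries in a group. The labels give no genotype other than the strain, no age of the mice, nor whether each library was a separate animal. The p-values therefore cover the spread among these libraries, which may be technical.

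The beta chain decides much of what an integrin does. Beta-1 pairs with many alpha chains: with alpha-1 it binds collagen, with alpha-5 fibronectin, with alpha-6 laminin and with alpha-4, as VLA-4, VCAM1 and fibronectin. Beta-7 also pairs with alpha-4, and that pair carries lymphocytes to the gut. Beta-3 and beta-5 pair with alpha-v to bind vitronectin and other matrix proteins, and alpha-v beta-5 on phagocytes also takes part in the uptake of dying cells. Beta-2 integrins, which are not among these genes, are the main adhesion receptors of neutrophils.

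Library totals ran from 15940328 to 21825096 estimated counts. Values are given as CPM, counts scaled to library size with TMM factors, and the floor set by 3 counts, which covers counting error alone, lay between 0.121 and 0.263 CPM. The sort was on ICAM1 protein, so Icam1 mRNA checks it only indirectly. Icam1 stood at 48.2, 58.4, 42.4 and 122 CPM in ICAM1-high libraries and at 18.7, 9.25 and 4.31 CPM in the ICAM1-low replicates numbered 1, 2 and 3. Against this, the library labelled ICAM1-low replicate 5 had 138 CPM, more than any ICAM1-high library. Ly6g, the defining surface marker of mouse neutrophils, was between 25.9 and 41.1 CPM in ICAM1-low libraries but between 0.095 and 3.99 CPM in ICAM1-high libraries, at 0.095 CPM under the floor in replicate 1. All 10 neutrophil markers had negative log2 fold changes and 4 fell, with summed levels of 6293 to 29585 CPM in ICAM1-low libraries, against 1481 to 4289 CPM in ICAM1-high ones. All 10 macrophage markers had positive values and 7 rose, with sums of 779 to 1089.7 CPM in ICAM1-low libraries, against 5386 to 15514 CPM in ICAM1-high ones (edgeR, adjusted p under 0.05). Both counts were 0 without ICAM1-low replicate 1, and the 4 neutrophil calls were also lost without ICAM1-high replicate 1; with any other 1 library left out, 1 to 6 neutrophil and 3 to 8 macrophage markers were called. In such sorted pools, fewer cells of a type and less RNA per cell cannot be told apart.

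Of the 10 genes, Vcam1 rose in ICAM1-high libraries and no integrin chain passed the threshold (edgeR, adjusted p under 0.05 over all genes tested). Over all genes, 1.50% were called, with 1.22% higher and 0.273% lower. The groups did not overlap for 2 of the 10, Vcam1 and Itgb7, both higher; of all genes, 11.4% were apart, 7.51% higher and 3.89% lower. At an unadjusted p under 0.05 stood 4 of the 10, Vcam1, Itgb7, Itgb5 and Itgb3, beside 16.9% of all genes. The log2 fold changes were positive for 5 members and negative for 5, with a median of 0.01 against -0.07 for all genes tested. Of the integrin chains, DESeq2 called Itgb7 (adjusted p = 0.0234) and limma-voom called Itgb5 (adjusted p = 0.0411), each higher in ICAM1-high; these tools called 4.44% and 3.39% of genes higher. Over all genes the median moved up by 0.13 on the log2 scale with upper-quartile scaling and by 0.24 with library sizes only, and the changes here are relative to the TMM scale.

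**Figure D1:**
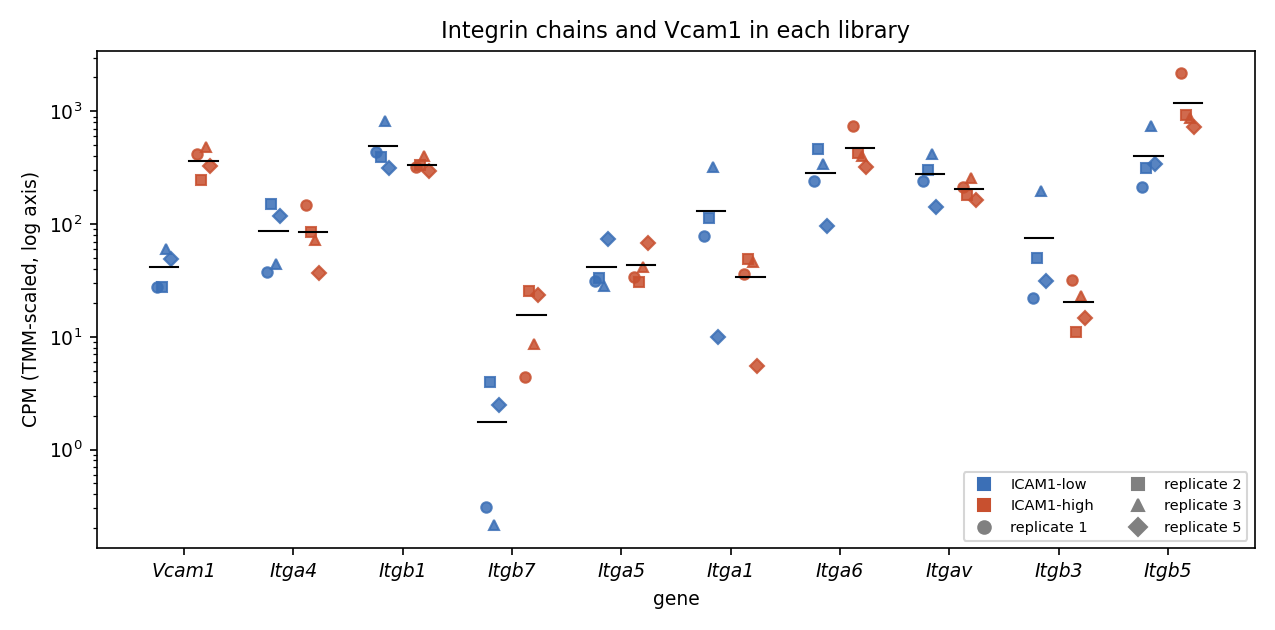
CPM of each gene in each library on a log axis, with blue symbols for ICAM1-low and red symbols for ICAM1-high libraries, a symbol shape for each replicate number and black bars for group means. The groups are apart for Vcam1 (at most 60.7 against at least 244 CPM) and Itgb7 (at most 3.97 against at least 4.42 CPM), and overlap for the other genes.

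Vcam1 (ENSMUSG00000027962) encodes vascular cell adhesion molecule 1, which inflamed endothelium displays to leukocytes and which some stromal cells and tissue macrophages also carry. Its level was 27.9, 27.9, 60.7 and 49.3 CPM in ICAM1-low libraries and 415, 244, 478 and 327 CPM in ICAM1-high libraries. Every ICAM1-high library was above every ICAM1-low library, and the lowest ICAM1-high value, in replicate 2, was well above the highest ICAM1-low value, in replicate 3. The means were 41.4 ± 16.3 and 366 ± 102 CPM (SD, n = 4). This is a rise of 3.14 ± 0.47 on the log2 scale (SE; edgeR adjusted p = 0.0127), or 8.83-fold. By its p it ranked 28 of 13575 genes. The call held in 16 of 17 alternative analyses; without ICAM1-low replicate 1 the log2 fold change was 2.99 and the edgeR adjusted p 0.0521. Without the library labelled ICAM1-low replicate 5, or without both libraries numbered 5, Vcam1 was again the 1 gene of the 10 to pass.

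Markers of other cells that can carry VCAM1 were read beside it. The macrophage marker sums above did not overlap between the groups and were higher in ICAM1-high libraries, as Vcam1 was. Within the ICAM1-high group the order differed: replicate 5 had the highest macrophage sum (15514 CPM) with 327 CPM of Vcam1, and replicate 3 had the highest Vcam1 with a macrophage sum of 5572 CPM. Of 7 endothelial markers, 3 were abundant enough to test and none passed the threshold (edgeR; 1 higher at an unadjusted p under 0.05, none called by DESeq2 or limma-voom). These 3 were Pecam1, an adhesion molecule that some leukocytes also carry (7.86 ± 7.33 CPM in ICAM1-low and 24.9 ± 8.18 CPM in ICAM1-high libraries, SD), Cdh5, which encodes the cadherin of endothelial junctions (4.2 ± 2.82 and 1.63 ± 0.645 CPM), and Kdr, which encodes a VEGF receptor. Kdr was at 3.07, 0, 0 and 0.175 CPM in ICAM1-low libraries and at 4.37, 27.8, 0.193 and 30.8 CPM in ICAM1-high ones. Tek, which encodes an endothelial receptor kinase, stood at 0 CPM in all 4 ICAM1-low libraries and reached 0.663 CPM at most, and Cldn5, Tie1 and Egfl7 were each under 1 CPM in every library. The endothelial sums were 1.60 to 23.9 CPM in ICAM1-low libraries, against 18.3 to 65.9 CPM in ICAM1-high ones. ICAM1-high replicate 3, which had the most Vcam1, had the lowest endothelial sum of its group, below that of the library labelled ICAM1-low replicate 5 (23.9 CPM, with 49.3 CPM of Vcam1). Fibroblast and pericyte markers summed to 1593 to 2563 CPM in ICAM1-low libraries, against 447 to 1929 CPM in ICAM1-high ones. The part of macrophage, endothelial or fibroblast RNA in the rise of Vcam1 was not tested.

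**Figure D2:**
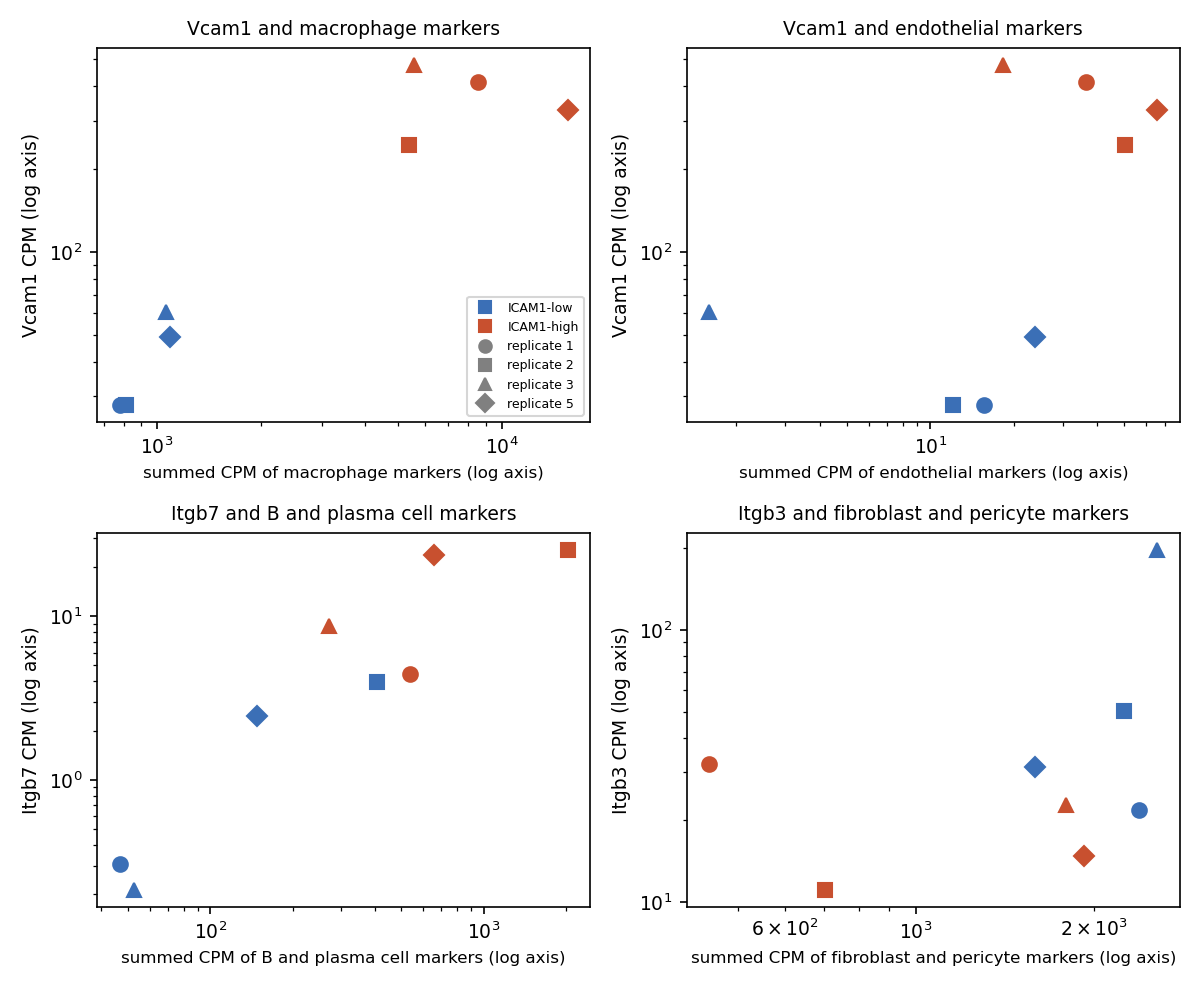
Each panel plots the CPM of 1 gene against the summed CPM of a marker list, both on log axes, with 1 symbol per library (blue ICAM1-low, red ICAM1-high, shapes for replicate numbers). Vcam1 is apart between the groups as macrophage marker sums are, while the endothelial sums overlap. Itgb7 is lowest in the 2 libraries with the lowest B and plasma cell sums. Itgb3 is highest in the library with the highest fibroblast and pericyte sum, but the other libraries do not follow the same order.

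None of the integrin chains that make up the VCAM1 receptors passed the threshold. Itga4 (ENSMUSG00000027009), the alpha-4 chain that binds VCAM1, stood at 37.5, 151, 44.0 and 117 CPM in ICAM1-low libraries and at 147, 84.4, 72.1 and 36.7 CPM in ICAM1-high libraries. Both groups covered almost the same range, and replicates 1 and 5 were ordered in opposite ways in the 2 groups. The log2 fold change was -0.04 ± 0.58 (SE; edgeR adjusted p = 0.978), and its sign turned with the scaling: it was 0.07 with upper-quartile scaling and 0.21 with library sizes only. Itgb1 (ENSMUSG00000025809), the beta-1 chain, was at 435, 390.3, 819 and 317 CPM in ICAM1-low libraries, against 321, 333, 400.4 and 293 CPM in ICAM1-high ones. The ICAM1-high values lay close together at the lower end of the ICAM1-low range, and ICAM1-low replicate 3 was the highest of all. The log2 fold change of -0.54 ± 0.43 did not reach the threshold (SE; edgeR adjusted p = 0.556).

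Itgb7 (ENSMUSG00000001281), the other partner of alpha-4, was the scarcest chain per length in ICAM1-low libraries. It was at 0.307, 3.97, 0.213 and 2.46 CPM there, from 6, 67, 4 and 28 counts in turn. In ICAM1-high libraries it was at 4.42, 25.5, 8.69 and 23.6 CPM. The groups did not overlap, but ICAM1-low replicate 2 and ICAM1-high replicate 1 nearly met. Its log2 fold change of 3.16 ± 1.10 was as large as that of Vcam1 but with a wider error, and did not reach the threshold (SE; edgeR adjusted p = 0.183). It ranged from 2.79 without ICAM1-low replicate 3 to 3.99 without ICAM1-low replicate 2. Cells of the B lineage can carry beta-7. Their marker sums were 46.6, 408, 52.8 and 148 CPM in ICAM1-low libraries, against 536, 2032, 273 and 657 CPM in ICAM1-high ones. The 2 ICAM1-low libraries with the least Itgb7 had the lowest sums, ICAM1-high replicate 2 had the most of both, and the sums of the groups overlapped. T and NK cell marker sums were 2.11 to 38.7 CPM in ICAM1-low libraries, against 62.7 to 292 CPM in ICAM1-high ones. Of 5 B and plasma cell markers tested none passed the threshold (edgeR; 2 at an unadjusted p under 0.05; DESeq2 and limma-voom called 1 each). Of 7 T and NK cell markers tested 1 did, Cd4 (edgeR adjusted p = 0.0451), while Cd3e and Cd3d did not enter the fit. Leaving out any 1 of ICAM1-low replicates 1 and 3 and the 4 ICAM1-high libraries ended the Cd4 call, with edgeR adjusted p values from 0.0699 to 0.126. It was also lost with RLE scaling (edgeR adjusted p = 0.0502) and without both libraries numbered 5 (edgeR adjusted p = 0.0503). Dendritic cell marker sums were 2.28 to 21.6 CPM in ICAM1-low libraries, against 17.6 to 89.4 CPM in ICAM1-high ones. They were highest in ICAM1-high replicate 2, as Itgb7 was, but ICAM1-low replicate 3 had 21.6 CPM with the least Itgb7. Of 3 dendritic cell markers tested none passed the threshold (edgeR, with 2 higher at an unadjusted p under 0.05). The part of lymphocyte or dendritic cell RNA in the Itgb7 values was not tested.

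**Figure D3:**
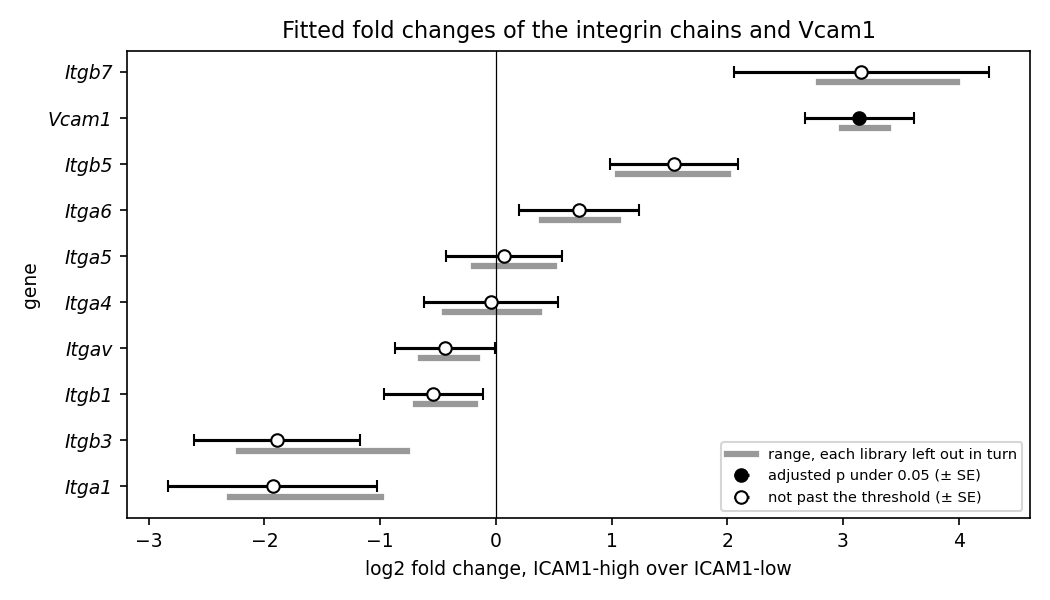
Log2 fold change of ICAM1-high over ICAM1-low for each gene, with points for the fitted value, bars for 1 SE and grey bars for the range when each library was left out in turn. Only the point of Vcam1 is filled, for an adjusted p under 0.05; the ranges of Itga4 and Itga5 include 0.

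Among the chains that pair with beta-1 to bind matrix, none passed the threshold. Itga5 (ENSMUSG00000000555), the fibronectin receptor chain, was at 31.0, 33.5, 28.0 and 73.8 CPM in ICAM1-low libraries, against 34.0, 30.5, 42.0 and 67.8 CPM in ICAM1-high ones. The 2 libraries numbered 5 were the highest of their groups, and the others lay within one narrow range. The log2 fold change was 0.07 ± 0.50 (SE; edgeR adjusted p = 0.959) and -0.03 with RLE scaling. Itga1 (ENSMUSG00000042284), a collagen receptor chain, varied widely among ICAM1-low libraries, at 78.8, 114, 318 and 10 CPM. In ICAM1-high libraries it was at 36.2, 48.7, 46.2 and 5.47 CPM. The lowest value of each group was in its library numbered 5, and these 2 libraries lay below all others. Its log2 fold change of -1.93 ± 0.90 did not reach the threshold (edgeR adjusted p = 0.304), and it was -0.99 without ICAM1-low replicate 3.

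Itga6 (ENSMUSG00000027111), the laminin receptor chain, was at 242, 463, 343 and 96.4 CPM in ICAM1-low libraries, against 740.1, 428, 403 and 319 CPM in ICAM1-high ones. The groups overlapped, with ICAM1-low replicate 2 above 3 of the ICAM1-high libraries. The log2 fold change was 0.72 ± 0.52 (SE; edgeR adjusted p = 0.514).

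The alpha-v chain and its partners had fold changes of both signs, none past the threshold. Itgav (ENSMUSG00000027087) was at 241, 299, 422 and 142 CPM in ICAM1-low libraries, against 214, 181, 254 and 164 CPM in ICAM1-high ones, with a fitted log2 ratio of -0.44 ± 0.43 (SE; edgeR adjusted p = 0.641). The ICAM1-high values lay inside the ICAM1-low range. Itgb3 (ENSMUSG00000020689), the beta-3 chain, known from platelets, osteoclasts and angiogenic vessels, was at 21.9, 50.5, 197 and 31.4 CPM in ICAM1-low libraries, against 32.2, 11.1, 22.8 and 14.8 CPM in ICAM1-high ones. ICAM1-low replicate 3 stood far above all other libraries, and ICAM1-low replicate 1 and the library labelled ICAM1-low replicate 5 lay within the ICAM1-high range. The log2 fold change of -1.89 ± 0.72 did not reach the threshold (edgeR adjusted p = 0.218), and it was -0.77 without ICAM1-low replicate 3. Fibroblast and pericyte marker sums were highest in ICAM1-low replicate 3 at 2563 CPM, as Itgb3 was, but the orders otherwise differed. ICAM1-low replicate 1 had a sum of 2389 CPM with the least Itgb3 of its group. ICAM1-high replicate 1 had the lowest sum of all, 447 CPM, with the most Itgb3 of its group. The part of fibroblast and pericyte RNA in the Itgb3 values was not tested. Platelet marker sums were 5.96 to 55.9 CPM in ICAM1-low and 50.7 to 73.9 CPM in ICAM1-high libraries. The markers Ppbp, Gp9, Gp1ba and Treml1 did not enter the fit, and the part of platelet RNA was not tested. Most of the ICAM1-high sum was Pf4, a platelet chemokine gene, which rose from 6.03 ± 3.80 to 58.6 ± 11.3 CPM (SD; edgeR adjusted p = 0.0485); of the libraries left out 1 at a time, only the one labelled ICAM1-low replicate 5 left this call in place. Gp1bb, which encodes a chain of a platelet receptor, was at 15.0 ± 18.5 and 1.69 ± 1.73 CPM and did not reach the threshold (edgeR adjusted p = 0.286). Itga2b, the platelet partner of beta-3, was at 1.80 ± 1.09 CPM in ICAM1-low libraries, against 1.79 ± 1.97 CPM in ICAM1-high ones (SD, n = 4).

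Itgb5 (ENSMUSG00000022817), the beta-5 chain, was the most abundant of the 10 per length in ICAM1-high libraries. It was at 214, 315, 741 and 344 CPM in ICAM1-low libraries, against 2174, 937, 869 and 722 CPM in ICAM1-high ones. ICAM1-high replicate 1 stood far above the rest, and ICAM1-low replicate 3 slightly exceeded ICAM1-high replicate 5, so that the groups overlapped by 1 pair of libraries. The log2 fold change was 1.54 ± 0.55, or 2.91-fold (SE; edgeR adjusted p = 0.195), which was not past the threshold.

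The share of Itgb5 among the beta chains rose and those of Itgb1 and Itgb3 fell in ICAM1-high libraries. Counts were divided by gene length, and each chain was taken as a share of the summed Itgb1, Itgb3, Itgb5 and Itgb7 of its library, which no scaling between libraries affects. The share of Itgb5 rose from 71.1 ± 6.49% in ICAM1-low to 90.1 ± 3.74% in ICAM1-high libraries (SD, n = 4). It was 62.2, 71.6, 72.9 and 77.6% in ICAM1-low libraries, against 95.5, 89.4, 87.4 and 87.9% in ICAM1-high ones, with no overlap. The share of Itgb1 fell from 26.6 ± 6.95 to 8.85 ± 3.33%, and that of Itgb3 from 2.07 ± 1.12 to 0.307 ± 0.0991%. For these 3 chains the two-sided exact permutation test over 70 assignments gave p = 0.0286, the smallest it can give (adjusted p = 0.0381 over the 4 chains). Shares add up to the whole, so these 3 results are not independent of each other. The macrophage marker sums (779 to 1089.7 CPM against 5386 to 15514 CPM, ICAM1-low first) and neutrophil marker sums (6293 to 29585 CPM against 1481 to 4289 CPM) were apart between the same groups, and their part in the shares was not tested. The share of Itgb7 was 0.189 ± 0.200% in ICAM1-low libraries, against 0.772 ± 0.614% in ICAM1-high ones and was not past the threshold (exact permutation p = 0.143, adjusted p = 0.143).

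The size of these shares depended on the length used, though not their direction. How the deposited gene length was made is not stated. For Itgb5 it was 1077 bases, while the longest of its 7 transcripts in GENCODE M21 has 3282 bases. With longest transcripts as lengths, the share of Itgb5 was 45.8 ± 7.58% in ICAM1-low libraries, against 76.0 ± 8.14% in ICAM1-high ones, and that of Itgb1 went from 49.8 ± 8.65 to 21.7 ± 7.32% (SD, n = 4). Itgb1 and Itgb5 were then about level in ICAM1-low libraries. The exact permutation p values of Itgb1, Itgb3 and Itgb5 were 0.0286 (adjusted p = 0.0381) with either length and with counts not divided by length. Leaving out any 1 ICAM1-low library kept these calls. Leaving out any 1 ICAM1-high library ended them without turning a direction. The differences were then -18.7 to -16.2 percentage points for Itgb1, -1.80 to -1.72 for Itgb3 and 17.1 to 19.8 for Itgb5. Adjusted p values were 0.0571 for Itgb1 and Itgb5 and 0.0571 to 0.114 for Itgb3 (exact permutation). The unadjusted p of Itgb1 and Itgb5 stayed at 0.0286 in each case, while that of Itgb3 was 0.0571 to 0.0857 (exact permutation).

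**Figure D4:**
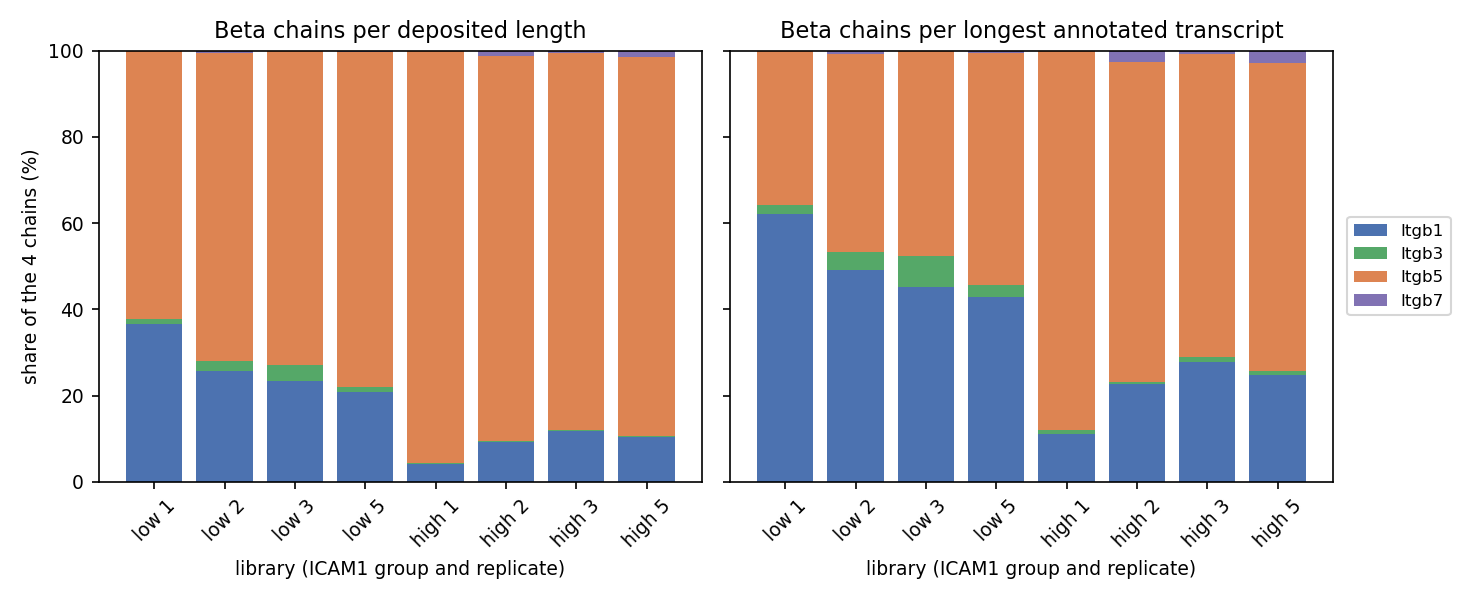
Stacked bars give the share of each beta chain in the summed 4 chains of a library, in percent, with counts divided by the deposited length on the left and by the longest annotated transcript on the right. Itgb5 takes 87.4 to 95.5% in ICAM1-high and 62.2 to 77.6% in ICAM1-low libraries on the left, and the same order of groups is seen on the right.

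The sequence before the start of these beta chain genes differs in base composition and GC boxes, and is shown for the chains that made up most of the sum and for the chain with the largest fold change. The windows are the 250 bases before the RefSeq start in GRCm38.p6, a build other than that of the counts, written 5′ to 3′ on the strand of the gene. They are chr8:128685404-128685653 (+ strand) for Itgb1, chr16:33829415-33829664 (+ strand) for Itgb5 and chr15:102231936-102232185 (- strand) for Itgb7. Capitals mark the GC box GGGCGG or its reverse complement CCGCCC.
Itgb1: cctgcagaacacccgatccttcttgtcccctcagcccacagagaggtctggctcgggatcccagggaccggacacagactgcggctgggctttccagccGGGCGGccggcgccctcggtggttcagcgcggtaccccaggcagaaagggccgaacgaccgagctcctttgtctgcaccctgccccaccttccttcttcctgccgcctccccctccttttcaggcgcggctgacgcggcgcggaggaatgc
Itgb5: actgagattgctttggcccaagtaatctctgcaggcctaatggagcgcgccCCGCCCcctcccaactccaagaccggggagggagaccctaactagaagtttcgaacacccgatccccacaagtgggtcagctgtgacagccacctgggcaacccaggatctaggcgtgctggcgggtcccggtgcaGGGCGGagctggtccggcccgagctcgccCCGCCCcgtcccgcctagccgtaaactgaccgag
Itgb7: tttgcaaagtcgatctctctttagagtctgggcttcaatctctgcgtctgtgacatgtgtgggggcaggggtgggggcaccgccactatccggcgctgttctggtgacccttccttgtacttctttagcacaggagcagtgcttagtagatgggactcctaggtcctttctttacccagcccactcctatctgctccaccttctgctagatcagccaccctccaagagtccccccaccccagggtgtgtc
The window of Itgb5 holds 3 GC boxes, that of Itgb1 holds 1 and that of Itgb7 holds none, and 32.7% of 32841 promoter windows of this length hold at least 1 on either strand. The GC content is 65.2% for Itgb5, 68.0% for Itgb1 and 56.0% for Itgb7, against a median of 52.4%. The purine motif GAGGAA, searched on both strands as GAGGAA and TTCCTC, is in the window of Itgb1, 1 time, and not in those of Itgb5 and Itgb7 (23.3% of windows hold it). RefSeq promoter windows were found for 7 of the 10 genes, and Vcam1, Itgb3 and Itga6 had none. A match describes letters only and says nothing of binding in these cells.

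No alpha chain share passed the threshold. Itga6 took 16.1 ± 5.18% of the summed Itga1, Itga4, Itga5, Itga6 and Itgav per length in ICAM1-low libraries, against 30.6 ± 6.97% in ICAM1-high ones (SD, n = 4). It was 16.6, 23.1, 13.7 and 11% in ICAM1-low libraries, against 40.0, 31.4, 23.8 and 27.3% in ICAM1-high ones, so that the groups were apart by a narrow gap. The exact permutation p of 0.0286 was not past the threshold over 5 chains (adjusted p = 0.143). Itgav took 77.4 ± 4.06 and 64.6 ± 6.92% (exact permutation p = 0.0571, adjusted p = 0.143). Its deposited length was 596 bases, and its longest transcript, of 7054 bases, was 11.8 times as long. With longest transcripts as lengths Itgav took 29.0 ± 4.51 and 18.7 ± 4.41%, and Itga6 led in both groups with 46.4 ± 11.8 and 67.3 ± 5.99%.

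Levels of different genes were compared per length, as counts per base scaled to the same sum in each library (TPM). With the deposited lengths the order in ICAM1-low libraries was Itgav, Itgb5, Itgb1, Itga6, Itga1, Itgb3, Vcam1, Itga5, Itga4 and Itgb7, from 743 ± 354 TPM for Itgav down to 1.19 ± 1.33 TPM for Itgb7 (SD, n = 4). Each gene's range over 4 libraries overlapped that of its neighbour in this order, with the exception of Itga4 and Itgb7. In ICAM1-high libraries the order was Itgb5, Itgav, Itga6, Vcam1, Itgb1, Itga5, Itga4, Itgb7, Itga1 and Itgb3, from 1763 ± 834 TPM for Itgb5 to 5.78 ± 2.55 TPM for Itgb3. There Itgb5, Itgav and the group of Itga6, Vcam1 and Itgb1 did not overlap, nor did Itgb1 and Itga5. Vcam1 was the seventh in the ICAM1-low order, at 18.8 ± 7.20 TPM, and the fourth in the ICAM1-high order, at 182 ± 68.5 TPM, beside Itgb1 at 153 ± 43.1 TPM. With longest transcripts as lengths Itgb1 led the ICAM1-low libraries (204 ± 103 TPM, with Itgb5 at 193 ± 118 TPM), Itgb5 still led the ICAM1-high libraries (579 ± 274 TPM), and Itgav stood at 62.8 ± 29.9 and 48.7 ± 15.7 TPM.

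The genes most like Vcam1 across the 8 libraries, by Pearson's r of log2 CPM among 7535 genes of at least moderate level, were Dab2 (r = 0.99), which encodes an endocytic adaptor, Vav2 (0.98) and Ccr2 (0.98), the chemokine receptor gene of monocytes. Within the 4 ICAM1-high libraries these r were 0.98, 0.73 and 0.80. Dab2 was at 95.4, 109.8, 145 and 168 CPM in ICAM1-low libraries, against 518, 417, 545 and 492 CPM in ICAM1-high ones, and like Vcam1 it was highest in ICAM1-high replicate 3 and lowest of that group in replicate 2. Itgb7 was most like Ighm, the immunoglobulin mu heavy chain gene, Apobec3 and Gnpat (each r = 0.94). Within the ICAM1-high libraries these r were 0.68, 0.75 and 0.30. Itgb1 was most like Septin9 (0.99), Cdk16 (0.96) and Usp24 (0.95), with r of 0.81, 0.98 and 0.97 within ICAM1-high libraries. Itgb3 was most like Dusp7 (0.95), Arf3 (0.94) and Phospho2 (0.93), with r of 0.87, 0.83 and 0.50 there. The points of each correlation share libraries, depth and the difference between the groups, so these are descriptions of 8 libraries only.

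Of the other integrin chains outside the beta-2 family, none of 9 tested passed the threshold (edgeR; 2 at an unadjusted p under 0.05, both higher; DESeq2 called 2 and limma-voom 1). Their log2 fold changes were positive for 4 and negative for 5, with a median of 0.00 against -0.07 for all genes tested. Itga9, whose product pairs with beta-1 and also binds VCAM1, was nearest to the threshold. It was at 37.7, 38.7, 5.75 and 17.1 CPM in ICAM1-low libraries, against 241, 129.7, 138 and 162 CPM in ICAM1-high ones, with every ICAM1-high library above every ICAM1-low one. Its log2 fold change was 2.75 ± 0.61 (SE; edgeR adjusted p = 0.0502), and it passed the threshold in 8 of 17 alternative analyses, with adjusted p values from 0.000688 to 0.151. Itgae, the alpha-E chain that pairs with beta-7 on lymphocytes and dendritic cells in epithelia, had a fitted log2 ratio of 3.86 ± 1.56 (edgeR adjusted p = 0.240) at 0.727 ± 1.03 and 10.5 ± 8.48 CPM (SD, n = 4).

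Matrix and cell surface ligands of these integrins mostly had negative values. Of 23 tested, 1 fell and none rose (edgeR; 12 lower and 1 higher at an unadjusted p under 0.05; DESeq2 called 9 lower and 1 higher, limma-voom 8 lower), and 20 lay below 0, at a median log2 fold change of -1.92 against -0.07 for all genes tested. Of all 13575 genes tested, 1081 were higher and 1216 lower at an unadjusted p under 0.05 (edgeR). DESeq2 called 642 of 13157 genes lower, and limma-voom 349 of 13575. Fbln5, which encodes fibulin-5, an elastic fibre protein that binds integrins, was the ligand that fell. It was at 81.7, 39.3, 60.3 and 54.1 CPM in ICAM1-low libraries, against 4.32, 6.89, 15.7 and 4.69 CPM in ICAM1-high ones, with a fitted log2 ratio of -2.90 ± 0.59 (SE; edgeR adjusted p = 0.0408). Its call held in 9 of 17 alternative analyses. It was lost with library sizes only, without both libraries numbered 5 and without any 1 of ICAM1-low replicates 1, 2 and 3 and ICAM1-high replicates 1, 2 and 5, with values of -3.05 to -2.65 and adjusted p values from 0.0536 to 0.129. Fn1, the fibronectin gene, was at 13286, 13876, 11679 and 6348 CPM in ICAM1-low libraries, against 1855, 2282, 3527 and 1736 CPM in ICAM1-high ones, with no overlap but not past the threshold (log2 fold change -2.27 ± 0.52; edgeR adjusted p = 0.0571). It passed in 7 of 17 alternative analyses, with adjusted p values from 4.47e-05 (DESeq2) to 0.194. Fibroblast and pericyte marker sums, 1593 to 2563 CPM in ICAM1-low libraries, were 447 and 701 CPM in ICAM1-high replicates 1 and 2 but 1795 and 1929 CPM in replicates 3 and 5, and their part in these values was not tested.

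Adaptors link integrins to actin and regulate their activation. Their counts are read beside those of all genes, given with the ligands above. Of 34 tested, none was called (edgeR; 1 higher and 10 lower at an unadjusted p under 0.05; DESeq2 called 4 lower and limma-voom 1 lower), and the median log2 fold change was -0.20. The smallest p values were those of Nedd9, a docking protein of focal adhesions (log2 fold change -2.04 ± 0.54; edgeR adjusted p = 0.0868), and Vcl, which encodes vinculin (-2.54 ± 0.67; edgeR adjusted p = 0.0870). Talin-1, which switches integrins on, had a value near 0 in its gene Tln1 (-0.04 ± 0.50; edgeR adjusted p = 0.976), and Fermt3, which encodes the kindlin of blood cells, was at 1.29 ± 0.67 (edgeR adjusted p = 0.353).

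**Figure D5:**
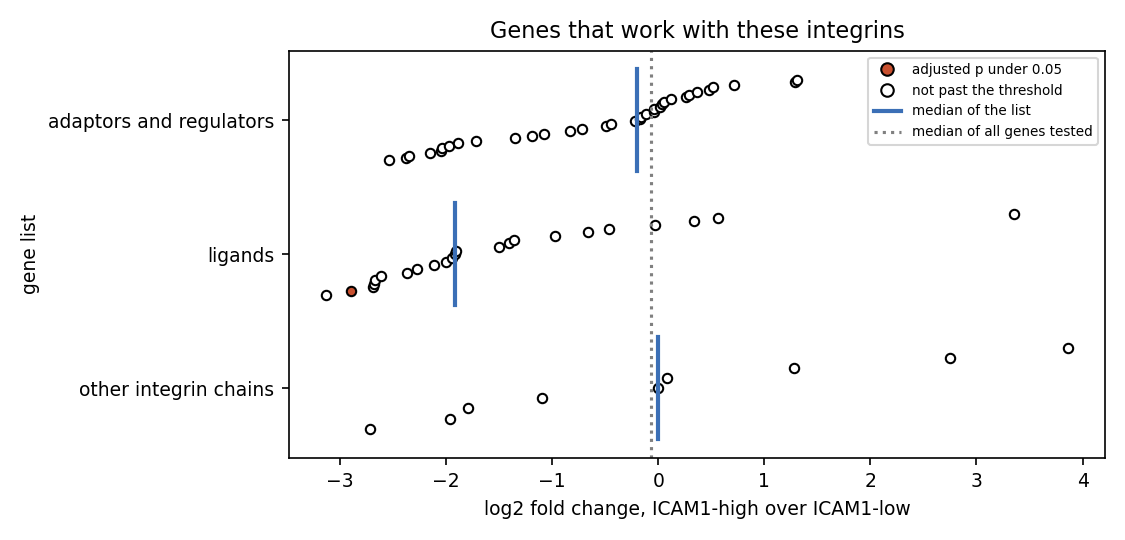
Log2 fold change of ICAM1-high over ICAM1-low for each tested gene of 3 lists, 1 point per gene, with red points for an adjusted p under 0.05, blue bars for list medians and a dotted line for the median of all genes tested. The ligands lie mostly below 0, with a median of -1.92, and Fbln5 is the red point.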

How the data were processed

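Gene expression was measured by RNA sequencing in 8 mouse neutrophil libraries, made with RNeasy Micro and QIAseq FX Single Cell RNA kits per the labels' protocols. The submitters' processing notes name Trim Galore 0.6.6, Salmon 1.9.0 and GRCm39 (mm39), with annotation and settings not given in the sources used here. Estimated counts per gene were deposited by the authors, with 1 length in bases per gene. Each of 25572 identifiers was kept once from 25669 rows, and 6482 were given symbols from a table of gene names. Counts were rounded, filtered (filterByExpr), scaled (TMM) and tested with edgeR 4.0.16 in R 4.3.3 (quasi-likelihood, group only, Benjamini-Hochberg over all genes). SE is the log2 fold change divided by the root of F. Shares were tested by exact permutation. DESeq2 1.42.0, limma 3.58.1 (voom with sample weights), other scalings and filters, a replicate term and leaving out libraries were alternatives; dividing by the longest GENCODE M21 transcript was added after seeing the data. The fit was tested on simulated counts with 50 genes changed at each of 4 sizes. It recovered 0 of those changed 2-fold, 1 at 4-fold, 7 at 8-fold and 30 at 16-fold. Of its 42 calls, 4 were unchanged genes. The members and lists were chosen with earlier results of these data known. Genes named were the 10 members, list genes past the threshold or the 2 with the smallest p, and the 3 genes most correlated with each of 4 members; others were named after their values were seen.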

Additional observations from a re-analysis of the deposited data

Results flagged for a closer look

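In 38 groups of 4 libraries, the CPM of 10 genes and the shares of 9 chains, 5 held a library far from the other 3 by Dixon's 95% criterion. Chance alone meets it in about 1 group of 20 where values are independent and normally distributed. CPM were not transformed and the shares reuse the same counts, so that rate need not hold here. Each of the 5 was the highest value of its group. Itga5 in the library labelled ICAM1-low replicate 5 was at 73.8 CPM against 33.5 CPM in the next library. As a share of the alpha chains it was 6.70% there against 1.69%, and 4.60% in ICAM1-high replicate 5 against 1.97%. Itgb3 in ICAM1-low replicate 3 was at 197 CPM against 50.5 CPM in the next library. Itgb5 in ICAM1-high replicate 1 was at 2174 CPM against 937 CPM.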

How the results depend on the processing

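Against 166 genes higher and 37 lower, leaving out 1 library gave 4 to 337 higher and 0 to 241 lower, the fewest without ICAM1-low replicate 1 and the most without the library labelled ICAM1-low replicate 5, and without both libraries numbered 5 there were 190 lower. DESeq2 called 584 higher and 642 lower, limma-voom 460 and 349, and the fit with a replicate block 280 and 261, among them 8 of the ligands lower, with Fn1 (adjusted p = 0.048), and Itga9 higher (adjusted p = 0.0191). Library sizes only gave 258 higher, no filter 120 lower and the filter of 10 CPM in 4 libraries 61 lower. Vcam1 kept its direction in all 17 alternatives; its log2 fold change was 2.99 to 3.39 when 1 library was left out. Itga4 changed sign with upper-quartile scaling (0.07), library sizes only (0.21), limma-voom (0.12), the replicate block (0.03), without both libraries numbered 5 (0.40) and when 1 library was left out (-0.44 to 0.37). Itga5 did so with RLE scaling (-0.03), DESeq2 (-0.03) and when 1 library was left out (-0.19 to 0.50). Itgb7 was not tested under the filter of 10 CPM. With the replicate block as a sign-flip test within pairs, the shares of Itgb1, Itgb3 and Itgb5 differed by -17.8, -1.76 and 19.0 percentage points (p = 0.125 by exact permutation, the smallest possible, so that no call could be made). Without both libraries numbered 5 they differed by -20.3, -2.02 and 21.9 points and the calls ended (p = 0.1 by exact permutation, the smallest possible, adjusted p = 0.133, with 3 libraries against 3), and those of Itga4 and Itga5 by 0.644 and 0.435 points, the reverse of -0.275 and -0.198. Leaving out 1 library gave -19.8 to -14.5 points for Itgb1, -2.05 to -1.24 for Itgb3, 16 to 21.2 for Itgb5, -0.724 to 0.423 for Itga4 and -0.914 to 1.15 for Itga5. The cause of these differences was not tested. Same-numbered libraries correlated in their deviations from group means at -0.15, 0.12, 0.15 and 0.38, and libraries of different numbers at -0.34 to 0.17. ICAM1-low replicates 2, 3 and 5 each correlated best with the ICAM1-high library of the same number. ICAM1-low replicate 1 correlated best with ICAM1-high replicate 3 (0.17). The labels do not say what a number stands for. The main tests did not take the numbers as pairs, and whether they are pairs is not known. Only 6 and 4 counts stand behind Itgb7 in ICAM1-low replicates 1 and 3.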
